A study of Mus musculus with 56 samples.

Results

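Enzymes that attach coenzyme A (CoA) to fatty acids, and enzymes that take it off again, were followed in mouse visceral adipose tissue (VAT) over 24 h. The 10 genes were Acsl1, Acsl3, Acsl4 and Acsl5 (long-chain acyl-CoA synthetases), Acss1 and Acss2 (acetyl-CoA synthetases) and Acot1, Acot2, Acot11 and Acot13 (acyl-CoA thioesterases). They were chosen by symbol among the 25939 Ensembl genes of the deposited VAT table, and each symbol matched 1 gene. RNA came from 56 female C57BL/6J mice, 9 weeks old, kept on normal chow under 12 h of light and 12 h of dark. For 7 days food was offered in the light phase only (daytime-restricted feeding, DRF) or in the dark phase only (nighttime-restricted feeding, NRF, the reference). VAT was taken at zeitgeber time (ZT) 0, 4, 8, 12, 16, 20 and 24, where ZT0 is lights-on, from 4 mice per regimen and time point. No group carried a transgene or a drug, and no ad libitum group is part of these data. Because feeding and light are in opposite order under the 2 regimens, a gene tied to feeding should peak about 12 h apart in clock time, and a gene tied to light at the same clock time.

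Free fatty acids enter most metabolic routes as CoA thioesters. Long-chain acyl-CoA synthetases make these thioesters for triglyceride synthesis, membrane lipids and mitochondrial oxidation; Acsl1 is the main form of adipocytes, Acsl4 prefers arachidonate and Acsl3 sits on the endoplasmic reticulum and lipid droplets. Acss2 makes acetyl-CoA from acetate in the cytosol and nucleus and is a classical target of the sterol regulatory element-binding proteins (SREBP), whereas Acss1 does so in mitochondria. Thioesterases hydrolyse acyl-CoA back to fatty acid and CoA: Acot1 acts in the cytosol and Acot2 in mitochondria, both being known targets of peroxisome proliferator-activated receptors (PPAR), Acot11 is known as a thioesterase of brown fat and Acot13 is a small mitochondria-associated form.

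Values are given as log2(CPM + 1), where CPM is reads divided by the effective library size that the deposited values carry, which is not the total of reads on genes. That scale serves comparisons of 1 gene between mice. TPM, reads per exon length scaled to the same sum in every library, serves comparisons between genes. The libraries held 31067786 to 41148655 reads on genes, and the members were covered by 33 to 194390 reads per library. All 10 passed the filter on low values and were tested among 15972 genes. Adipocyte markers (6 of 6 detected, none at 0 in all libraries) summed to 15952 to 31095 CPM under DRF without the pair named next and 15669 to 26780 CPM under NRF. A pair of DRF libraries stood apart: the sum of 8 uterine epithelium markers was 2861 CPM in DRF ZT0 replicate 4 and 676 CPM in DRF ZT8 replicate 1, against 12.5 to 88.8 CPM in the other DRF libraries and 15.9 to 48.1 CPM under NRF. In the same libraries the adipocyte sum was 0.655 and 0.421 times the median of the other 54. Calls in the 4 contrasts and the comparisons by time that changed without this pair are given with both values. In bulk tissue, fewer cells of a type and less RNA per cell cannot be told apart.

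Per length, Acsl1 was the most abundant member, with a median of 666 TPM and a range of 282 to 1582 TPM over the 56 mice. Acss2 followed at 344 TPM but ranged from 15.9 to 636 TPM, a 40.1-fold span. Acot13 was steady in TPM, at 137 TPM with a span of 1.47-fold, while on log2(CPM + 1) its mice ran from 4.43 to 5.39. A middle group held Acot2 (38.6 TPM), Acsl5 (32.7), Acsl4 (22.9), Acsl3 (17.4) and Acss1 (10.7 TPM). Acot1 (2.29 TPM) and Acot11 (1.99 TPM) were the lowest, yet ranged from 0.673 to 17.5 TPM and from 0.595 to 7.32 TPM. The order did not hold in every mouse. Acsl1 exceeded Acss2 in 45 of 56 libraries, Acot2 exceeded Acsl5 in 38, Acsl3 exceeded Acss1 in 35 and Acot1 exceeded Acot11 in 34, so these neighbours overlapped; Acot13 was above Acot2, and Acss1 above Acot1, in all 56.

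**Figure D1:**
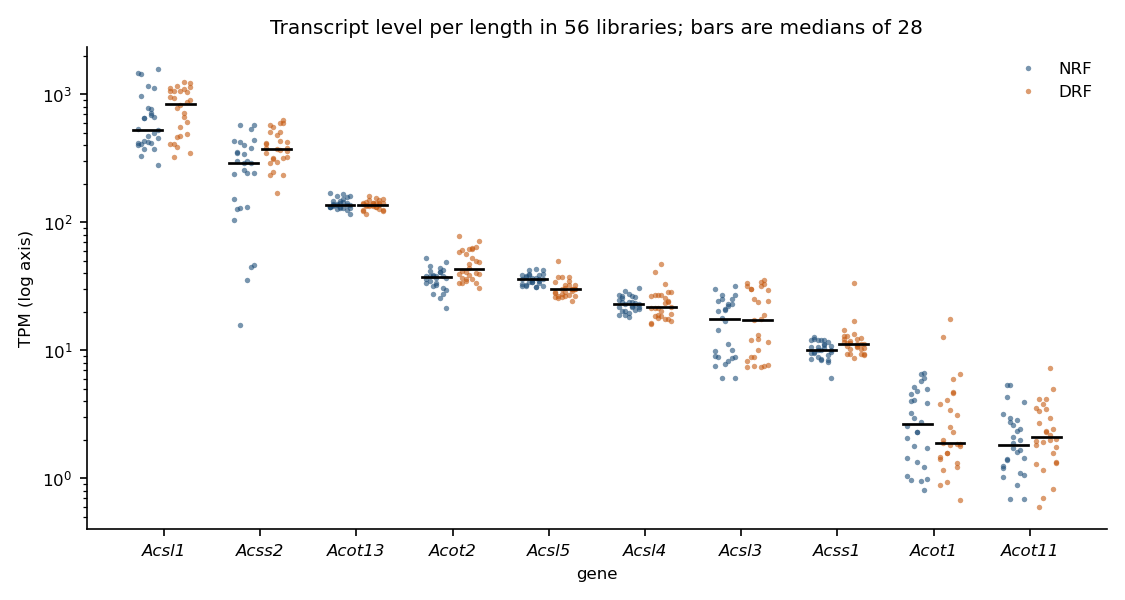
TPM of each member on a log axis, 1 point per mouse, 28 mice per regimen, ordered by the median over all mice; bars are the medians of each regimen. Acsl1, Acss2 and Acot13 lie above the rest, and Acss2 under NRF reaches down to 15.9 TPM.

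**Figure D2:**
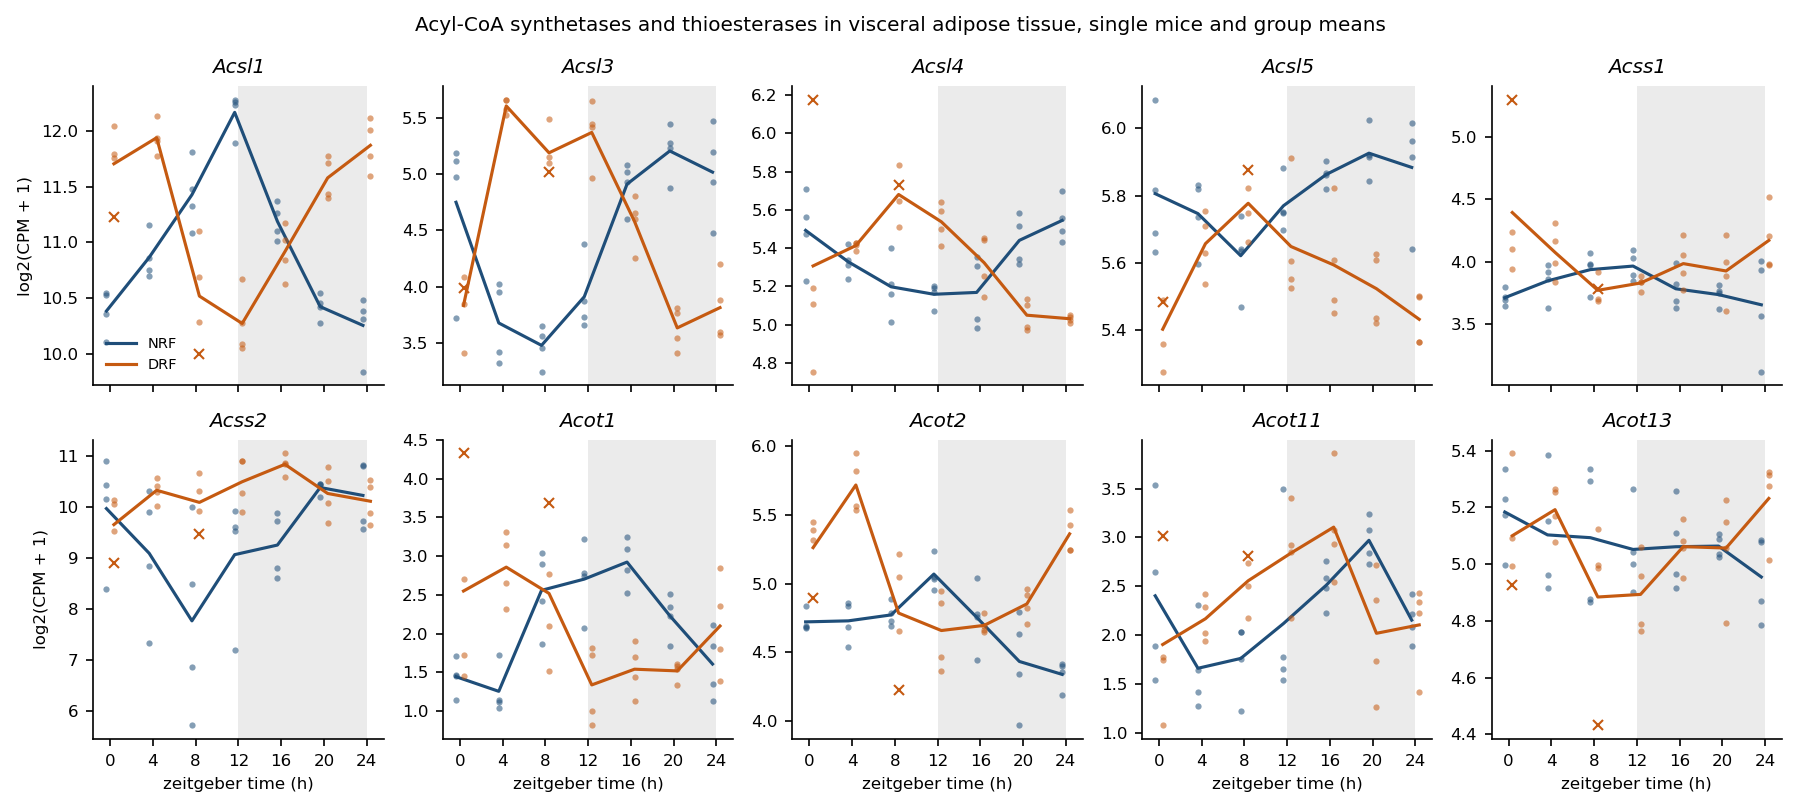
log2(CPM + 1) of the 10 members against zeitgeber time (h) under NRF and DRF; points are single mice, lines are means of 4, the dark phase is shaded and crosses mark the 2 DRF libraries with high uterine epithelium markers. Acsl1 and Acsl3 run in opposite order under the 2 regimens, Acss2 is low and uneven in NRF mice during the light phase, and Acot13 is nearly flat.

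To separate feeding from light, 4 contrasts were taken from 1 limma fit across all genes, with Benjamini-Hochberg adjustment and a threshold of 0.05. The fed minus fasted contrast compared mid-phase times (ZT4 and ZT8 against ZT16 and ZT20 under DRF, the reverse under NRF): 4 of 10 members changed, all 4 higher when fed, against 38.2% of all genes tested (20.3% higher and 17.9% lower). Taken alone, DRF gave 5 of 10 members against 29.9% of all genes and NRF 5 of 10 against 36.8%. The dark minus light contrast at equal feeding state, which also tests whether the fed minus fasted effect differs between the regimens, called 3 of 10 members, 2 higher in the dark and 1 lower, against 21.0% of all genes (10.4% and 10.6%). The day-average DRF minus NRF difference called 4 of 10 members, 3 higher and 1 lower, against 39.0% of all genes (20.4% and 18.7%). A contrast of the end of the fast with the end of feeding (DRF ZT0 and ZT24 against ZT12, and NRF in the reverse order) was added after the values had been seen, because Acsl1 turned at these points. It called 7 of 10 members, Acsl1 among them, 4 higher at the end of the fast and 3 lower, against 36.4% of all genes (16.3% and 20.2%). The members' median was 0.19 for fed minus fasted, -0.03 for dark minus light, 0.13 for the day average and -0.01 for the end of the fast, beside 0.00, -0.01, 0.00 and -0.01 over all genes tested. Without the pair of DRF libraries, the members called numbered 5 for fed minus fasted (4 under DRF alone and 6 under NRF alone), 4 for dark minus light, 6 for the day average and 8 for the end of the fast. Calls over all genes rose as well, from 6108 to 6898 for fed minus fasted and from 3355 to 3929 for dark minus light. They rose from 6236 to 7607 for the day average and from 5817 to 6510 for the end of the fast.

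**Figure D3:**
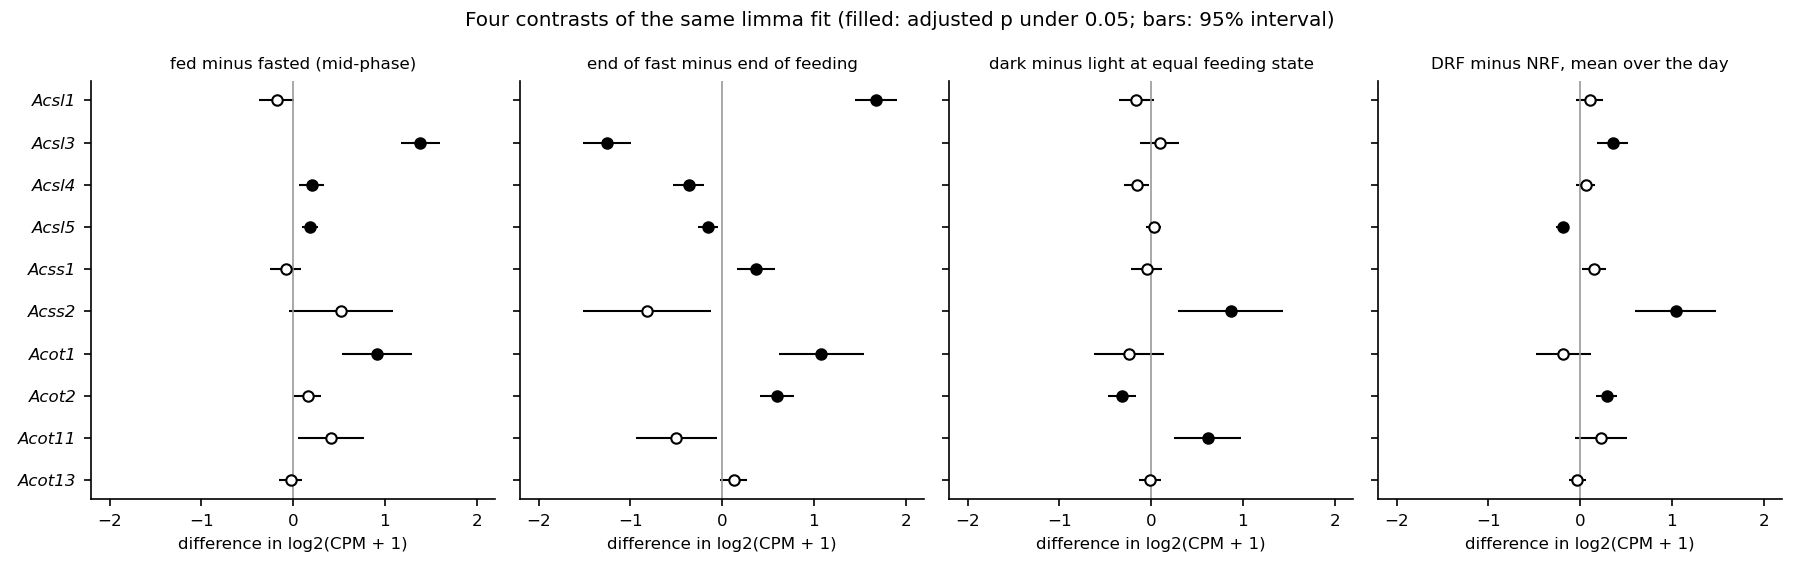
Differences in log2(CPM + 1) for each member in the 4 contrasts; points are limma estimates, bars 95% intervals, filled points have an adjusted p under 0.05. Acsl3 lies far to the fed side and Acsl1 far to the end-of-fast side, and Acss2 and Acot11 lie to the dark side.

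Acsl1 was high at the end of the fast under either regimen and had its lowest group means at the end of feeding. Its highest group mean stood at the end of the fast under NRF (ZT12, 12.17) and 4 h into feeding under DRF (ZT4, 11.94, beside 11.87 at ZT24). At NRF ZT12 the 4 mice read 11.89, 12.28, 12.26 and 12.23, and at NRF ZT24 they read 10.48, 10.39, 10.31 and 9.84. Under DRF the order turned: ZT24 gave 11.77, 12.11, 11.59 and 12.01, and ZT12 gave 10.67, 10.05, 10.28 and 10.09. The end-of-fast and end-of-feeding mice did not overlap in either regimen. The difference was 1.68 ± 0.12 (SE) on the log2 scale, or 3.20-fold, being 1.51 ± 0.17 under DRF and 1.85 ± 0.17 under NRF, given as a description because the contrast was chosen on Acsl1. The mid-phase contrast did not pass over both regimens: fed minus fasted was -0.18 ± 0.10 (limma adjusted p = 0.138), -0.22 when scaled by total reads (adjusted p = 0.0281) and -0.34 ± 0.14 under NRF alone (adjusted p = 0.0431). Under DRF alone it was -0.02 (limma adjusted p = 0.933), and 0.07 without the pair (0.716). Acsl1 differed between regimens at 6 of 7 clock times, from 1.89 lower in DRF at ZT12 (3.71-fold, limma adjusted p = 4.25e-10) to 1.61 higher at ZT24 (3.06-fold, adjusted p = 5.32e-08). Aligned to the start of feeding it differed only 4 h into feeding, where DRF ZT4 (11.90, 11.78, 12.13 and 11.94) stood above NRF ZT16 (11.01, 11.37, 11.27 and 11.10) by 0.75 ± 0.19 (limma adjusted p = 0.00434). The NRF ZT16 mice all lay below the NRF ZT12 mice, whereas the DRF ZT4 mice overlapped those of DRF ZT0 and ZT24. Its gene lies at chr8:46471037-46536051 on the plus strand of GRCm38, and its day average did not pass the test (0.10 ± 0.07, adjusted p = 0.279).

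Acsl3 ran the other way and was the member with the strongest fed minus fasted difference. At NRF ZT8, in the fast, the mice read 3.56, 3.24, 3.46 and 3.65, and at NRF ZT20, in the feeding phase, 5.23, 5.44, 4.87 and 5.27. Under DRF, ZT20 in the fast gave 3.41, 3.77, 3.81 and 3.55, and ZT4 in the feeding phase gave 5.66, 5.57, 5.53 and 5.66. Fed and fasted mice did not overlap in these groups. The fed minus fasted difference was 1.38 ± 0.11, or 2.61-fold (limma adjusted p = 6.11e-14), and it was 1.29 ± 0.15 under DRF and 1.48 ± 0.15 under NRF. The dark minus light value was 0.09 ± 0.11 (adjusted p = 0.571). The day average was 0.36 ± 0.09 higher under DRF (limma adjusted p = 0.000921). The aligned groups that differed were 4 h into feeding (DRF 0.69 ± 0.22 higher, adjusted p = 0.0178) and 4 h into the fast (0.90 ± 0.22 higher, limma adjusted p = 0.0031). The first of these was lost without NRF ZT16 replicate 1 (adjusted p = 0.0825).

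Over both regimens Acsl4 and Acsl5 were higher when fed, as was Acsl3, at a much smaller size. For Acsl4 the fed minus fasted difference was 0.20 ± 0.07 (limma adjusted p = 0.019, and 0.0923 when scaled by total reads). It was 0.36 under DRF (limma adjusted p = 0.00428) and 0.04 under NRF (adjusted p = 0.776). At the end of the fast Acsl4 stood 0.36 ± 0.09 lower (adjusted p = 0.000655). Its clearest groups were DRF ZT8, with 5.73, 5.51, 5.65 and 5.84, and DRF ZT24, with 5.01, 5.04, 5.05 and 5.03. DRF ZT0 replicate 4 read 6.18 against 4.75 to 5.19 in the other 3 mice, the highest Acsl4 of all 56; it is the library with the highest uterine epithelium sum, whose part in the value was not tested. With the pair left out, Acsl4 at ZT0 was 0.48 lower in DRF (limma adjusted p = 0.000756), whereas with it the difference was 0.19 lower (adjusted p = 0.373). The dark minus light contrast of Acsl4, 0.16 lower in the dark, passed without the pair (limma adjusted p = 0.015, against 0.0968 with it), and also with the pair when scaled by total reads (-0.20, adjusted p = 0.0445).

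Acsl5, a synthetase of the endoplasmic reticulum and mitochondria, had a lower day average under DRF, by 0.19 ± 0.03 (1.14-fold, limma adjusted p = 2.44e-05). With all libraries in the fit it was the single member called lower, and without the pair Acot1 was called lower as well. In Acsl5 at ZT24 the NRF mice read 5.64, 6.02, 5.96 and 5.92 and the DRF mice 5.36, 5.50, 5.36 and 5.50, without overlap (0.45 lower, limma adjusted p = 0.000276). Fed minus fasted for Acsl5 was 0.18 ± 0.04 (adjusted p = 0.000678), being 0.21 under NRF (0.00646) and 0.16 under DRF (0.0489; 0.14 and 0.0856 without the pair). It was lower than in NRF also at the aligned end of the fast, by 0.35 ± 0.08 (adjusted p = 0.00151). Against the end of feeding, Acsl5 was 0.15 ± 0.05 lower at the end of the fast over both regimens (limma adjusted p = 0.0224). It was 0.23 lower under DRF (adjusted p = 0.0237) and 0.07 lower under NRF (0.519). The call over both regimens was lost without DRF ZT12 replicate 4 (adjusted p = 0.115) or NRF ZT12 replicate 3 (0.0513). Over the day average, markers of other cells moved as well, beside 20.4% of all genes higher and 18.7% lower: 4 of 5 macrophage, 3 of 4 progenitor and 2 of 5 mesothelial markers were lower under DRF, and 3 of 3 blood and 2 of 6 brown adipocyte markers (Cox7a1 and Elovl3) higher. Of 6 adipocyte markers Lep was higher and Adipoq lower, and of 3 liver markers 1 was higher and 1 lower. For macrophage, progenitor and blood markers the summed CPM ranged over 581 to 1089, 1192 to 1992 and 229 to 742 under DRF without the pair and over 652 to 1728, 1312 to 2832 and 149 to 638 under NRF. Their part in the day-average differences was not tested.

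Windows around the start sites are shown for the members that moved most, from the RefSeq promoter table (GRCm38.p6), 250 bases before to 50 after each start; 9 of the 10 members matched, with 11 windows in all. Capitals mark letters of 4 motifs searched on both strands: the sterol response element TCACNCCAC, the CCAAT box CCAAT, the E-box CACGTG and the PPAR repeat DR1, which is AGGTCA, any 1 base and AGGTCA again. Of all 32851 windows, 1.24%, 37.4%, 7.15% and 0.0396% held them. The sterol response element letters were found in 1 member window, at the downstream start of Acsl1, where they lie 76 bases before the start between 2 CCAAT boxes. Acsl3 and Acss2 held a CCAAT box, 15 and 73 bases before the start, and no sterol response element letters in these windows. The files do not say which start was used.
Acsl1, downstream start, chr8:46490716-46491015, plus strand: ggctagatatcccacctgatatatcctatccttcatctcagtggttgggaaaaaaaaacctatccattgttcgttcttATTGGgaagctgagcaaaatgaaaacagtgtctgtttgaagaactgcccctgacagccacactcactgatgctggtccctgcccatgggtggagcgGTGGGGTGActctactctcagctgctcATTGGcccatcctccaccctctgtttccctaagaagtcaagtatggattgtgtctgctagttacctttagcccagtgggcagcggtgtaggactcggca
Acsl3, chr1:78657575-78657874, plus strand: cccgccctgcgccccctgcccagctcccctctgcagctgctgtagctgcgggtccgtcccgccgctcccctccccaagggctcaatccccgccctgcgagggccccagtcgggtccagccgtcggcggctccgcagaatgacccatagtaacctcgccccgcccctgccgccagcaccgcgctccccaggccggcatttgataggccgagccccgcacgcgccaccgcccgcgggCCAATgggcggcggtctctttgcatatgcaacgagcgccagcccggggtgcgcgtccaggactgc
Acss2, chr2:155517793-155518092, plus strand: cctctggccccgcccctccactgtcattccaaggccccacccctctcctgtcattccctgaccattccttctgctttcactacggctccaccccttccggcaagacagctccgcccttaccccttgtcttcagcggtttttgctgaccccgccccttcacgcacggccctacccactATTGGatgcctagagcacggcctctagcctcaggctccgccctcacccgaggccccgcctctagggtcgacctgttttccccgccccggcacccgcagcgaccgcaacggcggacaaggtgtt

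Acss2 was the member whose level the regimen changed most and, under NRF, the one that varied most between mice. Under NRF the mice were uneven during the fast and lowest on average at ZT8: there they read 8.48, 5.71, 9.99 and 6.86, at ZT4 9.89, 10.30, 7.32 and 8.84, and at ZT12, the end of the fast, 7.19, 9.53, 9.60 and 9.93. The end of the fast minus the end of feeding was -0.82 ± 0.36 (limma adjusted p = 0.0653, and 0.0492 when scaled by total reads), with -1.03 under NRF (0.124) and -0.61 under DRF (0.411). With 1 mouse left out, the value over both regimens ranged from -0.97 to -0.51 and passed in 5 of 56 fits. In the feeding phase the NRF mice lay close together at ZT20, with 10.45, 10.45, 10.19 and 10.42, but ranged from 8.61 to 9.88 at ZT16, from 9.57 to 10.82 at ZT24 and from 8.38 to 10.90 at ZT0. Under DRF the mice ranged from 8.90 to 11.05, the lowest being the pair of libraries that stood apart (8.90 and 9.46), with 9.52 the lowest of the others, and mid-fast mice read 10.83, 10.59, 10.86 and 11.05 at ZT16 and 10.07, 10.51, 10.78 and 9.68 at ZT20. The SD within groups had a median of 1.10 under NRF and 0.49 under DRF, where Acot1 and Acot11 had 0.51 each. The day average was 1.04 ± 0.23 higher under DRF, or 2.06-fold (limma adjusted p = 0.000331). Fed minus fasted was 1.39 ± 0.41 under NRF (2.62-fold, limma adjusted p = 0.0063) and -0.34 ± 0.41 under DRF (adjusted p = 0.571). The test of that difference, the dark minus light contrast, gave 0.87 ± 0.29 (limma adjusted p = 0.0276). It no longer passed without NRF ZT4 replicate 3 (adjusted p = 0.0642), NRF ZT8 replicate 2 (0.068) or NRF ZT8 replicate 4 (0.0523). At the same time into the fast, DRF stood above NRF by 1.74 ± 0.58 at 4 h (3.35-fold, limma adjusted p = 0.0294) and by 2.50 ± 0.58 at 8 h (5.65-fold, adjusted p = 0.00252). The 4 h difference missed the threshold when any 1 of 5 mice was left out (adjusted p up to 0.204; DRF ZT16 replicates 1, 3 and 4, NRF ZT4 replicates 3 and 4).

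Mouse by mouse, Acss2 moved with the genes listed for cytosolic acetyl-CoA, except Crat over all 56 mice. In the NRF ZT8 mice, in the same order, Acly (ATP-citrate lyase, which makes acetyl-CoA from citrate) read 10.43, 7.27, 12.67 and 8.33. Over deviations from the group means of all 56 mice, Pearson's r of Acss2 with Acly was 0.98 and Spearman's rho 0.97, both with a within-group permutation p of 1e-05, the smallest that 100000 permutations can give (1.2e-05 after Benjamini-Hochberg over 6 genes). Without the 2 mice farthest from the median r was 0.97, and it was 0.98 in NRF and 0.98 in DRF. Pearson's r and Spearman's rho were 0.95 and 0.97 for Acaca (acetyl-CoA carboxylase 1), 0.95 and 0.92 for Slc25a1 (the citrate carrier), 0.90 and 0.92 for Acat2 (cytosolic thiolase) and 0.75 and 0.81 for Acacb (acetyl-CoA carboxylase 2), each with the same permutation p. Without the 2 farthest mice these r were 0.95, 0.93, 0.90 and 0.73. Crat, carnitine acetyltransferase, gave r = 0.20 (permutation p = 0.058) and rho = 0.25 (p = 0.081), with r = 0.84 in DRF and -0.14 in NRF. The points share their libraries, and the adipocyte marker sum differed between these. How many of all genes tested follow Acss2 as closely was not counted. The r values are thus not shown to be particular to this list. Acss2 lies at chr2:155517948-155585724 on the plus strand of GRCm38.

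**Figure D4:**
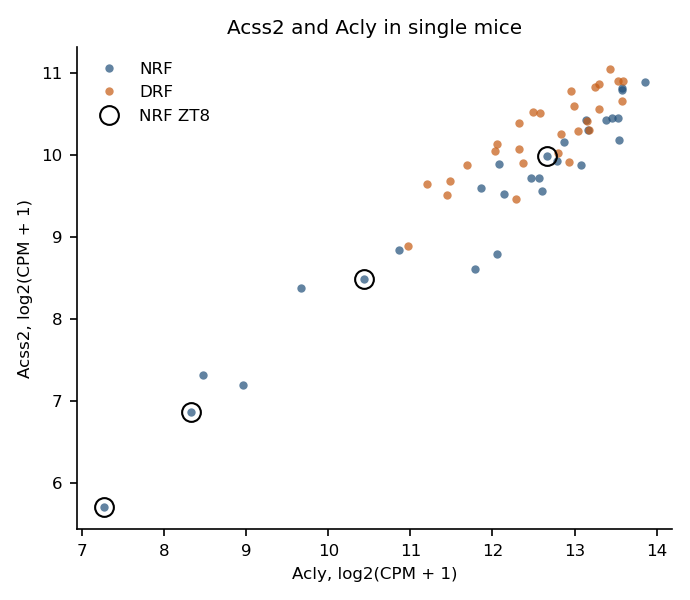
Acss2 against Acly, both in log2(CPM + 1), 1 point per mouse, with the 4 NRF ZT8 mice ringed. The ringed mice spread along the line of all mice, from 5.71 to 9.99 for Acss2 and 7.27 to 12.67 for Acly.

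Acss1, the mitochondrial enzyme, stayed within a narrow range, with group means from 3.66 (NRF ZT24) to 4.39 (DRF ZT0). It stood 0.37 ± 0.10 higher at the end of the fast (1.29-fold, limma adjusted p = 0.00467), 0.45 ± 0.15 under DRF (adjusted p = 0.0225) and 0.28 ± 0.15 under NRF (adjusted p = 0.159). Its day average was 0.15 higher under DRF (limma adjusted p = 0.0652), and 0.13 higher without the pair (0.0467). DRF ZT0 replicate 4 read 5.30, above the other 55 mice, and the remaining DRF ZT0 mice 4.24, 3.94 and 4.10. Without the pair the end-of-fast difference under DRF was 0.30 (limma adjusted p = 0.0539), and the ZT0 difference between regimens dropped from 0.68 (adjusted p = 0.00413) to 0.38 (0.0575). The ZT24 difference of 0.51 was lost without any 1 of 4 mice (DRF ZT24 replicates 1 and 3, NRF ZT24 replicates 3 and 4, adjusted p up to 0.188).

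Acot1 and Acot2 are neighbours on chromosome 12, at 84009490-84018371 and 83987861-83993873, both on the plus strand of GRCm38, and close copies. Of all 150-base windows of their annotated transcripts, 10.2% of Acot2 and 6.92% of Acot1 also occur in another gene, most of them shared by this pair, so reads from the shared stretch can be split between them. Their start windows are shown because the genes are close copies. The CCAAT box lies 79 bases before the start in Acot1 and 244 bases before it in Acot2, and neither window holds the DR1 letters.
Acot2, chr12:83987611-83987910, plus strand: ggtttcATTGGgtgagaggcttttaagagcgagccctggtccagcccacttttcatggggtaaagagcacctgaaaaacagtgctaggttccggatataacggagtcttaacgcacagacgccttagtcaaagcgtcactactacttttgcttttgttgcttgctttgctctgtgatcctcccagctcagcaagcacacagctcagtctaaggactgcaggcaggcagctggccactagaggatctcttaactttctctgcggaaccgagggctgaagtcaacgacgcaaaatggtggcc
Acot1, chr12:84009252-84009551, plus strand: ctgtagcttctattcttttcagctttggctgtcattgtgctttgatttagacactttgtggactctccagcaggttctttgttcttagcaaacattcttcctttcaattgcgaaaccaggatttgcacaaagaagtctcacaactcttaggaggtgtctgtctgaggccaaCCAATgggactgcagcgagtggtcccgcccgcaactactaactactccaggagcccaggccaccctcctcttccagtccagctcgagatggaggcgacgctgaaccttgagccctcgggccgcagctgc

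Acot1 was high around the change from fast to feeding and low from the end of feeding into the fast. NRF ZT16 mice read 2.53, 2.82, 3.25 and 3.09 and NRF ZT4 mice 1.12, 1.03, 1.72 and 1.15, without overlap. DRF ZT4 mice read 3.14, 2.32, 3.31 and 2.66 and DRF ZT16 mice 1.13, 1.70, 1.90 and 1.44, again without overlap. Acot1 was thus called both in the fed minus fasted contrast (0.91 ± 0.19, 1.88-fold, limma adjusted p = 0.000156) and at the end of the fast (1.08 ± 0.24 higher, 2.12-fold, adjusted p = 0.000302). The pair of DRF libraries gave its highest values of all, 4.33 in DRF ZT0 replicate 4 and 3.69 in DRF ZT8 replicate 1, against 1.45 to 2.70 and 1.52 to 2.77 in the other mice of those groups. Without the pair the 1.11 higher level in DRF at ZT0 (limma adjusted p = 0.0408) dropped to 0.51 (adjusted p = 0.275), and the day average became 0.30 lower in DRF (adjusted p = 0.0357) against 0.18 lower with it (0.355). The ZT0 call was also lost without DRF ZT0 replicate 3 or any 1 NRF ZT0 mouse, with limma adjusted p up to 0.348 over all 6 of these fits. Under NRF alone, fed minus fasted was 0.67 ± 0.28 (adjusted p = 0.0509), and it passed with the pair left out of the fit (0.00911).

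Acot2 had its highest group mean at DRF ZT4. These mice read 5.57, 5.54, 5.82 and 5.95, above all mice of the other 13 groups, while NRF ZT16 mice, at the same time into feeding, read 4.44, 4.75, 5.04 and 4.78. That aligned difference was 0.96 ± 0.15 (1.95-fold, limma adjusted p = 1.81e-05). For Acot1 it was -0.07 ± 0.39 (adjusted p = 0.919), and the genes were not tested against each other. The day average of Acot2 was 0.29 ± 0.06 higher under DRF (limma adjusted p = 0.000149). At the end of the fast Acot2 stood 0.60 ± 0.09 higher (1.51-fold, adjusted p = 1.25e-06), by 0.65 ± 0.13 under DRF and 0.54 ± 0.13 under NRF. Fed minus fasted was 0.48 ± 0.11 under DRF (limma adjusted p = 0.00052) and -0.16 ± 0.11 under NRF (adjusted p = 0.26), and these differed (dark minus light 0.32 ± 0.08 lower, limma adjusted p = 0.00209). Without the pair the fed minus fasted value over both regimens was 0.21 (adjusted p = 0.00937), against 0.16 with it (0.0898). The differences at ZT12 and ZT20 (0.41 lower and 0.42 higher in DRF, limma adjusted p = 0.0374 and 0.0386) were each lost without any 1 of 5 mice, with adjusted p up to 0.153 (DRF ZT12 replicates 2 and 3, NRF ZT12 replicates 2, 3 and 4) and 0.247 (DRF ZT20 replicates 2, 3 and 4, NRF ZT20 replicates 1 and 4).

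Of the other two thioesterases, Acot11 ranged over 12.3-fold and Acot13 over 1.47-fold in TPM across the 56 mice. Acot11 was highest at DRF ZT16, where the mice read 3.07, 2.94, 3.86 and 2.55, against 1.41, 2.31, 1.27 and 1.65 in NRF mice at the same 4 h into the fast, without overlap (1.44 ± 0.37 higher, 2.72-fold, limma adjusted p = 0.00495). Its dark minus light contrast was 0.61 ± 0.18 (1.53-fold, limma adjusted p = 0.0136), made up of 1.03 ± 0.26 for fed minus fasted under NRF (adjusted p = 0.00153) and -0.20 ± 0.26 under DRF (0.606). At the same clock time it passed at 0 of 7 time points by limma, ZT8 and ZT20 having an unadjusted p under 0.05 (0.0364 and 0.0132); without the pair the ZT20 difference, 0.95 lower in DRF, passed (limma adjusted p = 0.0358, against 0.0558 with it). At the end of the fast Acot11 was 0.50 lower (limma adjusted p = 0.0811), and without the pair 0.59 lower (0.0254). Under DRF alone these values were 0.84 lower (limma adjusted p = 0.0522) and 1.02 lower (0.0115). Brown adipocyte markers summed to 21.8 to 114 CPM in DRF mice without the pair and 15.5 to 116 CPM under NRF. Of these markers 0 of 6 passed in the dark minus light contrast, against 21.0% of all genes. Acot13 passed none of the 4 contrasts and no clock-time comparison by limma, its smallest unadjusted p in these being 0.0288 (ZT24, 0.28 higher in DRF). With the pair left out, its end-of-fast difference under DRF passed (0.30, limma adjusted p = 0.0174, against 0.27 and 0.0571 with it). Its group means lay between 4.88 (DRF ZT8) and 5.23 (DRF ZT24), and its day average differed by -0.03 ± 0.05 (adjusted p = 0.635, 95% interval -0.13 to 0.06). DRF ZT8 replicate 1 read 4.43, below the other 55 mice.

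A 24-h rhythm was sought in each regimen by the 2 methods of MetaCycle that suit these time points, JTK_CYCLE and the Lomb-Scargle periodogram. Both were run on the deposited values, which are log2(CPM + 1) per exon length scaled per library. Under NRF 7 of 10 members passed, against 40.6% of all genes, and under DRF 7 of 10, against 22.4%. The 7 were the same in both, Acsl1, Acsl3, Acsl4, Acsl5, Acot1, Acot2 and Acot11. Without the ZT24 libraries these 2 methods combined lost Acsl5 and Acot1 under DRF (adjusted p = 0.468 and 0.0933) and Acot2 under NRF (0.151). Over all genes the calls then fell from 3585 to 2462 under DRF and from 6488 to 6287 under NRF. With all libraries but on log2(CPM + 1), 8 members passed under NRF and 7 under DRF. Genes called on that scale numbered 6707 and 4088. Acss2 missed the threshold under NRF (adjusted p = 0.0522, combined by Fisher's method; 0.0343 with JTK_CYCLE alone, 0.0421 on log2(CPM + 1)) and under DRF (0.41), Acss1 gave 0.348 under NRF and 0.294 under DRF, and Acot13 gave 1 and 1. Some of the DRF calls were not firm to single mice. Under DRF Acot1 lost its call in 15 of 28 leave-one-out fits, Acot11 in 10 and Acsl5 in 8, with adjusted p up to 0.107, 0.099 and 0.0996, and Acsl5 under NRF lost it without NRF ZT8 replicate 1 (0.0659). With a limma F test of a cosine and a sine, Acot1, Acot11 and Acsl5 had adjusted p of 0.000278, 0.00387 and 0.000568 under DRF, and Acss1 (0.0114) and Acot13 (0.0313) passed there too, against 42.5% of all genes. That F test gave 8 of 10 members under NRF, against 52.3% of all genes, with Acss2 at an adjusted p of 0.000128. Acss1 passed it under NRF only with the pair left out (limma adjusted p = 0.0315, against 0.131). Acss2 also passed the combined test of JTK_CYCLE and Lomb-Scargle in 8 of 28 fits with 1 NRF mouse left out (adjusted p from 0.0134 to 0.228).

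The rhythm differed between regimens in 9 of 10 members by a limma F test of cosine and sine, against 53.9% of all genes, and not in Acot13 (adjusted p = 0.163). Shifts of the fitted peaks were taken the shorter way round the 24-h day. Acsl1 peaked at ZT11.1 under NRF and ZT23.9 under DRF, a shift of 11.2 ± 0.59 h (SE), and Acsl3 at ZT19.8 and ZT8.78 (95% interval of the shift 9.94 to 12.1 h). The interval of the shift was 7.56 to 12.5 h in Acsl5 and 6.95 to 12.01 h in Acsl4, so that in these 4 genes, Acsl1 included, it held 12 h. In Acss1 it was 5.99 to 14.4 h, but its rhythm under NRF passed only without the pair (limma F test adjusted p = 0.0315, against 0.131 with it). Its peak there is poorly fixed, with an SE of 1.78 h. In 4 further genes the interval ended below 12 h, with shifts of 9.81 h in Acot1 (7.80 to 11.8 h), 8.16 h in Acot2 (5.73 to 10.6 h), 6.69 h in Acss2 (1.76 to 11.6 h) and 5.79 h in Acot11 (3.15 to 8.43 h). Peaks and shifts were fitted with all 56 libraries and not without the pair, which held the highest Acot1 values. The upper ends for Acsl4 (12.01 h) and Acot1 (11.8 h) lie close together, so the split at 12 h does not set these genes apart. Counted from the start of feeding, Acsl3 peaked at 7.80 h under NRF and 8.78 h under DRF, and Acsl1 at 23.1 h and 23.9 h. Acot1 peaked early in feeding, at 1.90 h and 4.09 h, Acot2 at 22.6 h and 2.40 h, and Acot11 moved from 6.65 h to 12.9 h. Peak-to-trough differences were 1.68 ± 0.16 under NRF and 1.60 ± 0.16 under DRF for Acsl1, 1.92 ± 0.21 and 1.99 ± 0.21 for Acsl3, and 2.22 ± 0.44 and 0.72 ± 0.43 for Acss2. For Acss2 under DRF the fit was weak (limma adjusted p = 0.349), so its peak time there is poorly fixed.

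**Figure D5:**
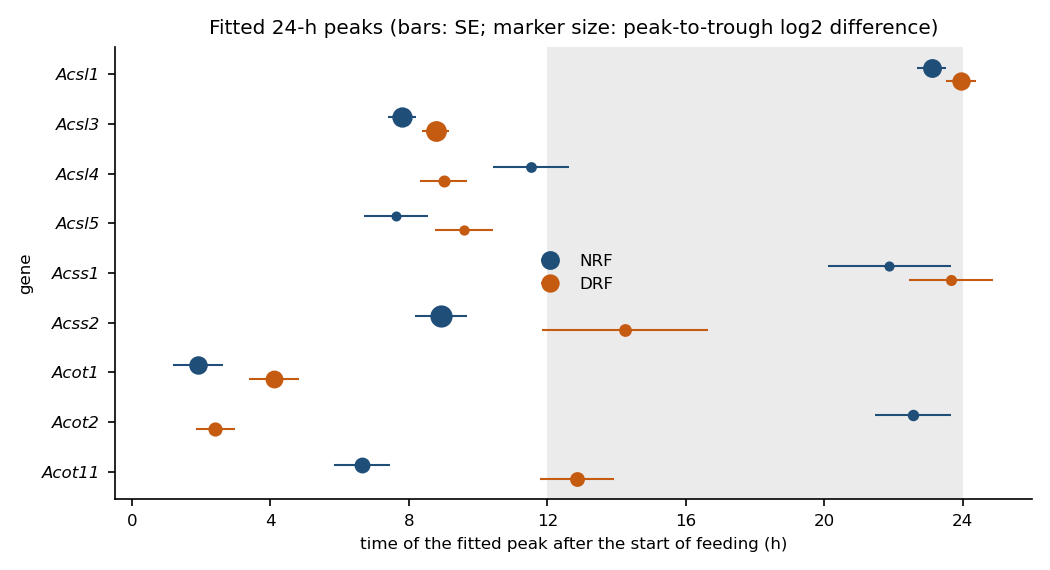
Fitted 24-h peak of each member, in hours after the start of feeding, under NRF and DRF, with SE bars, the fasting phase shaded and marker size by peak-to-trough difference; Acot13 is left out because its NRF peak could not be placed (SE 8.05 h). Acsl3 peaks at 7.80 and 8.78 h, inside the feeding phase, Acsl1 at 23.1 and 23.9 h, at the end of the fast, and Acot11 at 6.65 and 12.9 h.

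At the same clock time, 32 of 70 member tests passed (7 time points, 10 members), against 23.9% over all genes. By time, they were 6 of 10 at ZT0 (18.0% of all genes), 4 at ZT4 (33.9%), 4 at ZT8 (27.8%), 5 at ZT12 (27.2%), 2 at ZT16 (17.8%), 5 at ZT20 (22.7%) and 6 at ZT24 (20.1%). Aligned to the start of feeding, 8 of 60 passed (6 aligned times), against 13.1% of all genes. These were 3 of 10 members at 4 h into feeding (23.6% of all genes), 0 at 8 h (2.41%) and at its end (5.89%; 1 and 2 members had an unadjusted p under 0.05), 3 at 4 h into the fast (19.1%), 1 at 8 h (17.7%) and 1 at its end (9.74%). Acsl1 and Acsl3 each passed at 6 of 7 clock times but at 1 and 2 of 6 aligned times. Acss2 passed at 1 of 7 clock times (ZT8, 2.32 higher in DRF, 5.01-fold, limma adjusted p = 0.0022, with 1 NRF mouse inside the DRF range) and 2 of 6 aligned times, and at ZT16 its adjusted p was 0.0501, or 0.0396 with the pair left out. By ZT8 the regimens did not overlap in Acsl3, with 5.02, 5.10, 5.15 and 5.48 under DRF against at most 3.65 under NRF. Of the clock-time calls 24 of 32 held whichever mouse was left out, and 6 of 8 aligned calls did. With the pair left out, 3 aligned calls were gained, while the aligned calls over all genes rose from 12544 to 17185. Acsl4 at 4 h into feeding was 0.24 higher in DRF either way (limma adjusted p = 0.043, against 0.193 with the pair). Acot2 at 8 h was 0.54 higher (0.0286), against 0.35 with the pair (0.213). Acot1 at 8 h into the fast was 1.04 lower either way (0.00936, against 0.0554). Those not yet named that were lost are Acsl4 at ZT12 (adjusted p up to 0.102 without any 1 of the 8 mice of those groups other than DRF replicate 3) and at ZT20 (up to 0.114; DRF replicates 1, 2 and 4, NRF replicates 2 and 3), and Acsl5 at ZT16 (up to 0.112; DRF replicates 1 and 2, NRF replicates 1 and 3). Mice of the same clock time on successive days were compared as well. By limma, ZT24 minus ZT0 passed in 0 of 20 member tests, against 0.113% of all genes under DRF, 0.307% under NRF and 0.210% pooled. Of the 20, Acot2 under NRF had an unadjusted p of 0.0149 by limma.

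Over the 14 group means of log2(CPM + 1), the genes most like each member, out of all 15972, were named as a description. Acsl1 was nearest to Prkar2b (r = 0.98), a regulatory subunit of protein kinase A, then Fbxw2 and Smim19 (both r = 0.97). Acsl3 was nearest to Tmem104 (r = 0.99), Fam136a and Sc5d (both 0.98), the last a sterol desaturase. Acss2 was nearest to Nsdhl (r = 0.99), a cholesterol synthesis enzyme, Ufd1 (0.98) and Me1 (0.97), the cytosolic malic enzyme. Acsl4 was nearest to Lims1 and Bmp2k (both 0.95) and Gabpb1 (0.93), and Acsl5 to Lpcat1 (0.93), a lysophosphatidylcholine acyltransferase, Noc2l and Eml1 (both 0.92). Acot2 was nearest to Trappc6a (0.94), Nfkbib (0.93) and Zswim7 (0.92). The nearest genes reached r of at most 0.91 for Acot11 (Dpf3 0.91, Sec61a2 0.89, Spag1 0.88), Acss1 (Isoc2b, 4930513N10Rik and Lrriq3, all 0.90), Acot13 (Iah1 and Ndufa3 0.88, Gm26881 0.86) and Acot1 (Crtac1 and Pmepa1 0.87, B430219N15Rik 0.86). Among the members, Acsl1 and Acot2 were the most alike pair (r = 0.81) and Acsl5 and Acss1 the most opposed (r = -0.86).

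The members were set beside other genes of the same reactions. With feeding, 20.3% of all genes tested rose and 17.9% fell, and the counts of each list are to be read against these shares. Of 8 other acyl-CoA synthetases tested, 1 rose and 2 fell with feeding: Aacs, acetoacetyl-CoA synthetase, by 0.97 ± 0.13 (limma adjusted p = 3.87e-08), against Acss3 (propionyl-CoA synthetase, fell by 0.65 ± 0.10, adjusted p = 7.5e-07) and Aasdh (fell by 0.25 ± 0.06). In all 3 the effect differed between regimens (dark minus light, limma adjusted p = 0.000199, 0.000131 and 0.0154): under NRF and DRF it was 1.64 and 0.30 for Aacs, -0.12 and -1.18 for Acss3, and -0.05 and -0.45 for Aasdh. Of 4 fatty acid transport proteins, Slc27a4 rose by 0.26 ± 0.05. Of 9 other thioesterases, 4 rose and 1 fell, among them Acot5 (0.58 ± 0.11), Them4 (0.41 ± 0.08), Them6 (0.25 ± 0.06) and Acot9 (fell by 0.20 ± 0.06). Acot5 was near the floor, with a median of 0.61 CPM. Of 5 acyl-CoA binding proteins, Acbd5 fell by 0.28 ± 0.06. Of 10 genes of CoA synthesis and breakdown, 3 rose and 2 fell, with Ppcs (0.83 ± 0.09) and Pank3 (0.63 ± 0.14) up and Slc25a42 and Pank2 down by 0.36 ± 0.11 and 0.11 ± 0.03. Of 6 genes listed for cytosolic acetyl-CoA, Crat included, 4 rose: Acly by 1.37 ± 0.39, Acat2 by 0.86 ± 0.16, Acacb by 0.70 ± 0.15 and Slc25a1 by 0.68 ± 0.20 (limma adjusted p from 2.97e-05 to 0.00614). As for Acss2, the effect differed between regimens in Acly, Acat2 and Acacb (dark minus light, limma adjusted p = 0.0334, 0.001 and 3.52e-06), with 2.50, 1.59 and 1.73 under NRF and 0.24, 0.13 and -0.32 under DRF, where none of the 3 passed (adjusted p = 0.78, 0.72 and 0.277). The list medians were -0.04, 0.01, 0.04, -0.02, 0.03 and 0.69, in this order, beside 0.00 over all genes.

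At the end of the fast the list of 9 thioesterases held 4 genes that were higher and 2 that were lower, beside 16.3% and 20.2% of all genes. The higher ones included Acot3 and Acot4, which were named after their values were seen (1.63 and 1.60, limma adjusted p = 3.04e-10 and 4.68e-12); both belong to the same family as Acot1 and Acot2, and how much sequence they share with these was not measured. Acot3 was near the floor, with a median of 0.81 CPM against 26.2 CPM for Acot4. Of 8 other acyl-CoA synthetases, 4 were higher at this point and 1 lower, and of 4 fatty acid transport proteins 1 was higher and 1 lower. Among these, also named afterwards, Acsm5 and Slc27a1 stood 1.41 and 1.42 higher (limma adjusted p = 2.15e-10 and 6.21e-13), while Aacs fell by 0.61 (adjusted p = 0.00186) and Slc27a4 by 0.24 (0.00177). Acsl1 stood 1.68 higher. Of the 6 adipocyte markers, 3 were higher at the end of the fast and 1 lower, and their part in these differences was not tested.

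Against the same shares of all genes (20.3% higher and 17.9% lower), all 10 SREBP targets tested rose with feeding, with a median of 0.80, among them Insig1 (1.54 ± 0.17) and Stard4 (0.84 ± 0.08), beside 1.38 for Acsl3 and 0.52 ± 0.29 (adjusted p = 0.158) for Acss2. Of 10 PPAR and fasting targets, 6 fell and 2 rose, with a median of -0.53. Txnip fell by 1.45 ± 0.10, Angptl4 by 1.58 ± 0.16 and Cpt1a by 0.57 ± 0.07, while Fgf21 rose by 1.46 ± 0.17. Fgf21 was near the floor, with a median of 0.62 CPM. The dark minus light contrast called 4 of the 10 SREBP targets and 3 of the 10 PPAR and fasting targets, against 21.0% of all genes. Angptl4 and Txnip were among the PPAR and fasting targets called, and both fell with feeding under either regimen (limma adjusted p at most 0.000428).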

How the data were processed

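VAT RNA was polyA-selected, made into libraries with a kit that does not mark strand, and sequenced in 56 mice. The authors aligned reads with HISAT2 2.0.5 to mm10 and counted them with featureCounts 1.5.0-p3. The deposited values are named TPM but are a score on a log scale: log2(CPM + 1) divided by exon length and scaled per library. Whole reads were recovered with GENCODE vM21 lengths (99.9998% of 1262074 values up to 10000 reads whole within 0.02), and CPM and TPM were rebuilt from them. The depth of 31067786 to 41148655 reads on genes sets the precision, and intervals are over mice.

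Genes with a mean log2(CPM + 1) of at least 0.5 were tested with limma 3.58.1 (R 4.3.3) with an intensity trend, using 1 fit over the 14 groups and Benjamini-Hochberg adjustment over 15972 genes. For rhythms of 24 h, Fisher's method joined the p-values of JTK_CYCLE and of the Lomb-Scargle periodogram in each regimen, both run on the deposited values. Read recovery, the fed minus fasted and day-average contrasts, the rhythm difference and the combined rhythm test were tried on simulated data. Fitted peaks, their shifts and the sequence searches were not. Mice of a group were numbered in the titles, with no stated pairing, and p-values measure the spread between mice. No sample column was left unused (0).

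Members, gene lists and contrasts were chosen with earlier results of these data known. The text names all 10 members, the 3 nearest genes of each and, per list, up to 4 called genes with the smallest p in the fed minus fasted contrast; exceptions are stated, and some genes that the rule names are not reported here. Alternatives were another pseudocount, filter, scaling, limma voom on the recovered reads, a replicate block, left-out libraries and other rhythm tests.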

Additional observations from a re-analysis of the deposited data

Results flagged for a closer look

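In 8 of 140 groups of 4 mice, 1 mouse lay apart from the other 3 by more than Dixon's 95% critical value allows; chance alone gives about 1 in 20 groups. Under NRF these were Acsl1 at ZT12, where replicate 1 was lowest at 11.89, Acsl3 at ZT0, where replicate 1 was lowest at 3.72, and Acss2 at ZT12 and ZT20, where replicates 1 and 3 were lowest at 7.19 and 10.19. High NRF mice were replicate 3 for Acot1 at ZT4 (1.72), replicate 3 for Acot2 at ZT0 (4.84) and replicate 4 for Acot11 at ZT12 (3.50). Under DRF, Acot13 at ZT24 was lowest in replicate 1, at 5.01.

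The fed minus fasted effect differed between the regimens, as tested by the dark minus light contrast of limma with Benjamini-Hochberg adjustment, for Acss2 (adjusted p = 0.0276), Acot2 (0.00209) and Acot11 (0.0136). The fitted 24-h rhythm differed between regimens, by the limma F test, for Acsl1 (adjusted p = 1.06e-16), Acsl3 (2.28e-15), Acot1 (1.06e-07), Acot2 (2.34e-07), Acsl4 (1.28e-06), Acsl5 (1.02e-05), Acss2 (0.00186), Acot11 (0.00216) and Acss1 (0.00224). What made these differ was not tested.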

How the results depend on the processing

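Over the other settings, 458 member values kept their direction and their side of the threshold, 15 crossed into it, 5 fell out and 2 changed sign. The sign changed for Acsl5 in the dark minus light contrast when scaled by total reads (-0.020, from 0.026) and for Acot13 in the fed minus fasted contrast without the pair (0.0093, from -0.028); neither passed the test. With 1 mouse left out, Acot13 ranged from -0.050 to 0.0093 in the fed minus fasted contrast and from -0.045 to 0.016 in the dark minus light contrast, changing sign without 1 and 10 mice. Besides the fed minus fasted value of Acsl4 scaled by total reads, those that fell out were rhythms. They were lost without the ZT24 libraries for Acsl5 and Acot1 under DRF (adjusted p = 0.468 and 0.0933) and Acot2 under NRF (0.151), and with no filter for Acot1 under DRF (0.0535). The cause was not tested. Genes called under DRF by rhythm numbered 3585, but 6791 with the limma F test and 7048 with that test and a replicate block; rhythmic members under DRF numbered 4 to 7 with 1 mouse left out. The 67 genes called between ZT24 and ZT0 became 108 when scaled by total reads, 103 without the pair and 30 to 249 with 1 mouse left out. The replicate numbers were not taken to pair the mice: no label says so, and deviations of same-numbered mice in different groups correlated with a median r of 0.04, over 0.1 in 135 of 364 pairs, beside -0.01 and 312 of 1092 for other numbers. The replicate block changed no call among 50 member values (the 4 contrasts and the rhythm difference). It gave 33 clock-time member calls against 32, beside 28467 against 26758 over all genes, and 6328 genes in the fed minus fasted contrast against 6108. Over all settings clock-time member calls numbered 27 (no filter) to 34 (total reads), beside 25143 and 27254 over all genes in these 2 settings. Coverage was 33 to 779 reads per library for Acot1 and 42 to 484 for Acot11.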
